A study of Mus musculus with 2 samples.

Results

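Mir143, Mir145a, Mir221 and Mir222 are 4 microRNA genes tied to the state of smooth muscle cells, and they were followed here in the newborn mouse heart. They were taken by name, not by their values, and all 4 were found among the 1973 microRNA genes counted. The series holds small RNA libraries (size range under 30 nt, from total RNA) of 2 whole hearts of B6NCrl mice, a C57BL/6N substrain, at 0 days after birth. Replicate 2 is the single heart of pup 3 and replicate 1 that of pup 1, with 1 library per heart and no treatment, genotype or second condition. The sex of the pups was not collected. Spread between replicates therefore includes animal and library together, and the levels describe all cells of the heart at once. In such bulk tissue, fewer cells of a type and less RNA per cell cannot be told apart.

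Smooth muscle cells of vessels can switch between a contractile state, in which they express the contractile apparatus, and a proliferative or synthetic state, as in growing or injured vessels. Mir143 and Mir145a are neighbours transcribed together under serum response factor and myocardin, and their products repress Klf4 and Elk1, factors that oppose contractile genes. Mir221 and Mir222 are also neighbours; in rat and human cells their products repress the cell cycle inhibitor p27 and the receptor Kit, and are linked to proliferation. Mir221 and Mir222 are also expressed in endothelial cells. The contractile and proliferative labels come from such work in cultured cells and injured vessels. The tables hold microRNA genes alone, so the state of the smooth muscle cells in these hearts was not measured.

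The sequences of Mir221 and Mir222 are shown because they decide whether the reads of these related genes can be told apart. 2 of the 4 genes, Mir221 and Mir222, were matched in the RefSeq table of microRNA sequences used here (build GRCm38.p6). RefSeq also lists Mir143 and Mir145a as genes, but they were not matched in that table, so their seeds were not searched. In the mature arms, capitals mark the seed, bases 2 to 8, which pairs with target messenger RNAs. In the hairpins, capitals mark the 3p arm.
miR-221-3p: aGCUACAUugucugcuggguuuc
miR-222-3p: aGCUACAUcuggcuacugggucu
miR-221-5p: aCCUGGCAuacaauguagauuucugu
Mir221 hairpin: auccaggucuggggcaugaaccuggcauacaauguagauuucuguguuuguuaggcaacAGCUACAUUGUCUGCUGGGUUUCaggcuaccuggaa
Mir222 hairpin: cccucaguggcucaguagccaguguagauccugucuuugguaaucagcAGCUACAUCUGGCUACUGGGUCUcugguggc

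The 3p arms of Mir221 and Mir222 have the same seed and the same first 8 bases. Counted from the 5′ end, the first difference is U9C, with miR-221-3p as the first base named, and 12 of the 23 positions differ. The longest stretch the 2 hairpins share is 9 nt. Of the 1679 mature names in the RefSeq table, miR-1928 was the other one with this seed, and its gene, Mir1928, had 0 counts in both libraries, which allows up to 0.393 CPM (counts per 1000000 gene counts) in replicate 2 and 0.471 CPM in replicate 1, the level of 3 counts. None of the 4 genes shared a stretch of 20 nt with another annotated microRNA precursor, so their reads had no annotated second precursor to match at that length. Reads that matched several places were assigned to no gene; they made up 34.6% of the reads of replicate 2, against 35.9% in replicate 1.

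The genes lie as close pairs, each on the minus strand of build mm10. Mir143 (ENSMUSG00000065445.2) is at chr18:61649196-61649258 and Mir145a (ENSMUSG00000065592.1) at chr18:61647825-61647894, with 1301 nt between them. Neither overlaps another annotated gene. The long noncoding RNA gene Carmn, on the same strand, ends 366 nt upstream of Mir143, and Bvht, a long noncoding RNA gene on the opposite strand, ends 352 nt from Mir145a. Mir221 (ENSMUSG00000065422.1) is at chrX:19146294-19146388 and Mir222 (ENSMUSG00000065471.1) at chrX:19146893-19146971, 504 nt apart and overlapping no other annotated gene. The nearest other gene on their strand is Gm14636, a processed transcript, 10009 nt upstream of Mir222.

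Both hearts showed the same order, Mir143 far above Mir145a, and Mir145a far above Mir221 and Mir222. The level is given as CPM of the counts on the strand of the genes, which came to 7630427 in replicate 2 and 6373797 in replicate 1. Levels were not divided by gene length, because libraries of this size range are made to capture mature microRNAs, whose length does not follow that of the hairpin; read lengths were not examined here. Per nt of hairpin the order of the mean levels was the same, from 1401 CPM for Mir143 through 37.4 for Mir145a and 0.897 for Mir221 to 0.724 for Mir222. Per-library intervals here are exact Clopper-Pearson 95% intervals, which cover counting error only. The tables count whole genes, so the 5p and 3p arms were not separated.

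Mir143 had 649173 counts in replicate 2 and 582737 in replicate 1. These are 85077 CPM in replicate 2 (interval 84879 to 85275) and 91427 CPM in replicate 1 (91203 to 91651), or 88252 ± 4490 CPM (SD, n = 2). It was the gene with the third highest count in each heart, with Mir126a, an endothelial microRNA, and Mir208b, a cardiac muscle microRNA, above it. This order leaves out reads that matched several places, so genes with repeated sequence can stand too low in it. Mir143 stood at 0.696 times the counts of Mir126a in replicate 2 and 0.634 times in replicate 1. Against Mir208b it stood at 0.787 times in replicate 2 and 0.899 times in replicate 1. Mir143 was therefore within 2-fold of these leading genes in both hearts.

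Mir145a had 19890 counts in replicate 2 and 16746 in replicate 1. These are 2607 CPM in replicate 2 (2571 to 2643) and 2627 CPM in replicate 1 (2588 to 2667), or 2617 ± 14.6 CPM (n = 2). The intervals overlapped, and on this total the coefficient of variation between hearts was 0.558% for Mir145a, 5.09% for Mir143, 13.6% for Mir221 and 4.44% for Mir222. This order depends on the total: with all reads as the total the coefficient of variation was 3.40% for Mir145a and 1.60% for Mir222. By mean level it was number 37 of all genes. Mir145b, a separate gene elsewhere on chromosome 18, had 2 counts in replicate 2 and 0 in replicate 1.

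Mir221 had 713 counts in replicate 2 and 491 in replicate 1. These are 93.4 CPM in replicate 2 (86.7 to 100.6) and 77.0 CPM in replicate 1 (70.4 to 84.2), or 85.2 ± 11.6 CPM (n = 2), and the intervals did not overlap. Mir222 had 450 counts in replicate 2 and 353 in replicate 1. These are 59.0 CPM in replicate 2 (53.7 to 64.7) and 55.4 CPM in replicate 1 (49.8 to 61.5), or 57.2 ± 2.54 CPM (n = 2), with overlapping intervals. The lower Mir221 value lay above the higher Mir222 value, so neighbours in the order of the 4 genes did not overlap between hearts.

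**Figure D1:**
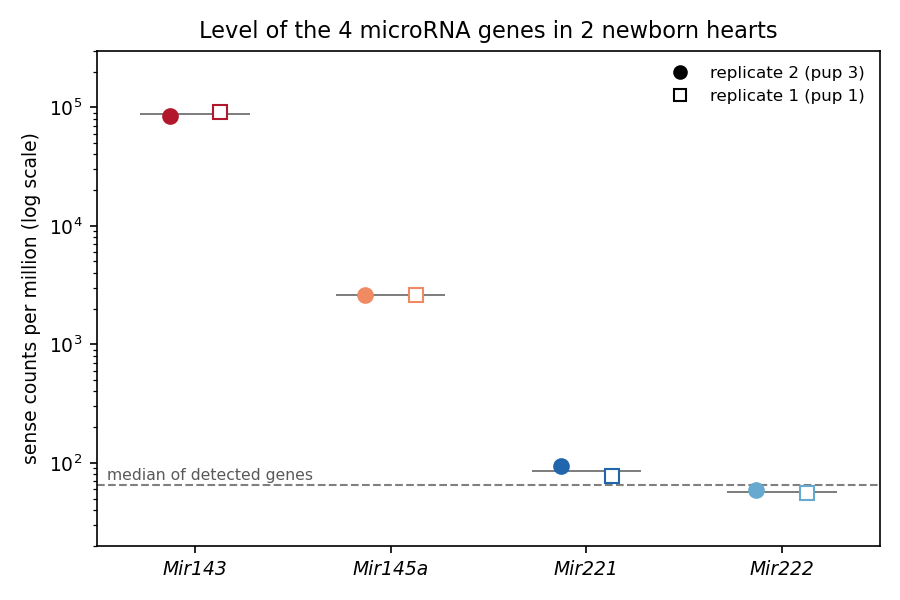
Sense-strand level, in CPM on a log axis, of the 4 genes in replicate 2 (filled circles) and replicate 1 (open squares), with the mean as a grey line, exact 95% intervals as bars that mostly lie within the symbols, and the median of the 358 detected genes as a dashed line. Mir143 lies near 88252 CPM and Mir145a near 2617 CPM, while Mir221 (85.2 CPM) and Mir222 (57.2 CPM) lie on either side of the median.

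Set among all genes, Mir143 and Mir145a were at the abundant end and Mir221 and Mir222 in the middle. A gene was called detected with 10 or more counts in both libraries, which 358 of the 1973 genes had, with a median level of 64.6 CPM and quartiles of 8.14 and 589 CPM. Mir143 was 1365-fold above that median and Mir145a 40.5-fold above it. Mir221 was at 1.32 times and Mir222 at 0.885 times the median. By mean level Mir221 was number 164 and Mir222 number 188, so 54.2% of detected genes lay below Mir221 and 47.5% below Mir222. Of the 358 detected genes 80 have repeated sequence, and reads that matched several places are not in their counts.

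**Figure D2:**
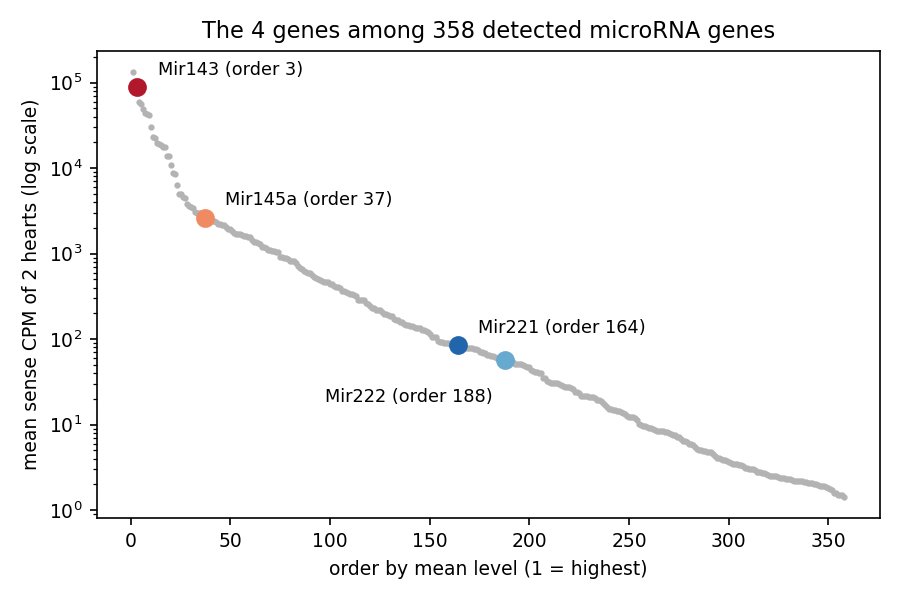
Mean sense-strand level of 2 hearts, in CPM on a log axis, of the 358 detected genes ordered from highest to lowest (grey), with the 4 genes in colour. Mir143 is number 3, Mir145a number 37, Mir221 number 164 and Mir222 number 188.

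Together the 4 genes took 8.78% of the counts in replicate 2 and 9.42% in replicate 1, a mean of 9.10% ± 0.449 (n = 2). Nearly all of this was Mir143, which made up 96.9% of the 4-gene sum in replicate 2 and 97.1% in replicate 1. Mir145a gave 2.97% of the sum in replicate 2 and 2.79% in replicate 1. Mir221 and Mir222 together took 0.0152% of all counts in replicate 2 (0.0144 to 0.0161) and 0.0132% in replicate 1 (0.0124 to 0.0142).

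The genes whose level was most like each member were found by the absolute difference in log2(CPM + 1), summed over the 2 libraries, among genes without repeated sequence. For Mir143 these were Mir208b, at 104936 ± 4545 CPM (n = 2), and Mir335, at 60101 ± 2048 CPM, with summed differences of 0.50 and 1.11. For Mir145a they were Mir106b, at 2535 ± 142 CPM, and Mir532, at 2431 ± 80.6 CPM, with 0.10 and 0.21. For Mir221 they were Mir665, at 81.8 ± 9.00 CPM, and Mir494, at 79.3 ± 9.22 CPM, both on chromosome 12, with 0.11 and 0.20. For Mir222 they were Mir301b, at 55.7 ± 2.22 CPM, and Mir672, at 58.3 ± 5.63 CPM, with 0.07 and 0.11. With 2 libraries this likeness is one of level, not of pattern.

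Within the Mir143 and Mir145a pair the counts were very unequal, and within the Mir221 and Mir222 pair they were close. Mir143 exceeded Mir145a by 32.6-fold in replicate 2 (interval 32.2 to 33.1) and by 34.8-fold in replicate 1 (34.3 to 35.3), a mean log2 ratio of 5.07 ± 0.07 (SD, n = 2). These intervals did not overlap, although the ratios differed by only -0.09 on the log2 scale (replicate 2 minus replicate 1). Mir221 exceeded Mir222 by 1.58-fold in replicate 2 (1.41 to 1.79) and by 1.39-fold in replicate 1 (1.21 to 1.60), a mean log2 ratio of 0.57 ± 0.13 (n = 2), with overlapping intervals. These are ratios of counts, so any difference in how well each sequence is captured in a library is part of them.

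The same ratio was computed for all 63 pairs of detected microRNA genes that follow each other on 1 strand within 10 kb and have no repeated sequence. Higher over lower gene, the median ratio of these pairs was 4.51-fold, with quartiles of 1.82-fold and 12.5-fold. Mir143 over Mir145a was number 7 from the top, next to Mir130b over Mir301b at 36.5-fold and Mir322 over Mir503 at 32.8-fold. Mir221 over Mir222 was number 54, at 1.48-fold. The ratio of Mir143 over Mir145a thus lay above the upper quartile of neighbouring pairs and that of Mir221 over Mir222 below the lower quartile. Before pairs with repeated sequence were left out there were 109. Some pairs share a gene and many lie on chromosome 12, so they are not independent, and no test was made of them.

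The log2 ratio of the median pair moved by 0.24 between the hearts, in either direction. That of Mir143 over Mir145a moved by 0.09, number 54 of 63 by size, and that of Mir221 over Mir222 by 0.19, number 41. Genes entered these pairs from 10 counts in each library upward, and low counts alone widen such moves. The order is therefore not matched for depth, and it does not show that either pair is steadier than others.

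**Figure D3:**
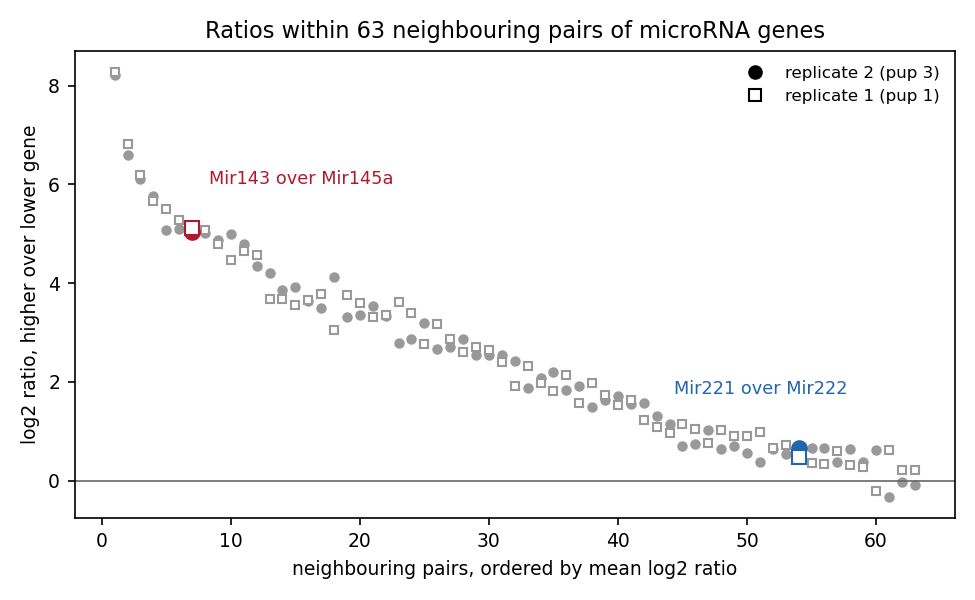
Log2 ratio of the higher over the lower gene (by mean level) in each of 63 neighbouring pairs of microRNA genes, ordered by their mean, in replicate 2 (filled circles) and replicate 1 (open squares). Mir143 over Mir145a (red) is number 7, with log2 ratios of 5.03 in replicate 2 and 5.12 in replicate 1, and Mir221 over Mir222 (blue) is number 54, with 0.66 in replicate 2 and 0.48 in replicate 1.

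Across the pairs, Mir143 exceeded Mir221 by 910-fold in replicate 2 (846 to 981) and by 1187-fold in replicate 1 (1086 to 1299). Mir145a exceeded Mir221 by 27.9-fold in replicate 2 (25.9 to 30.1) and by 34.1-fold in replicate 1 (31.2 to 37.4). The sum of Mir143 and Mir145a exceeded the sum of Mir221 and Mir222 by 575-fold in replicate 2 (543 to 610) and by 710-fold in replicate 1 (664 to 761), a mean log2 ratio of 9.32 ± 0.22 (n = 2). In each of these 3 ratios the intervals of the hearts did not overlap, and replicate 2 had the lower value. The ratios to Mir222 had overlapping intervals: Mir143 exceeded Mir222 by 1443-fold in replicate 2 (1315 to 1586) and by 1651-fold in replicate 1 (1487 to 1838), and Mir145a exceeded it by 44.2-fold in replicate 2 (40.3 to 48.6) and by 47.4-fold in replicate 1 (42.7 to 52.9).

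Between the hearts, Mir143 was slightly lower and Mir221 higher in replicate 2, and Mir145a and Mir222 did not pass the test. Each gene with at least 10 counts summed over the libraries was compared by a 2-sided exact binomial test given the library totals, and a gene passed at a Benjamini-Hochberg adjusted p under 0.05. This compares 2 libraries and counts sampling noise alone. Of 435 genes tested, 135 passed (31.0%), 83 of them higher in replicate 2 (19.1%) and 52 lower (12.0%). With Mir126a left out the split was 69 higher and 64 lower. Of the 4 genes, 2 passed, 1 in each direction.

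Mir143 differed by -0.10 on the log2 scale (replicate 2 over replicate 1), a ratio of 0.931, with an exact binomial adjusted p too small to be represented. With the depth of Mir143 so small a ratio is detectable. Mir221 had a log2 ratio of 0.28, or 1.21-fold (exact binomial adjusted p = 0.00372). Mir145a had a log2 ratio of -0.01 (exact binomial adjusted p = 0.675) and Mir222 one of 0.09 (exact binomial adjusted p = 0.650). Neither can be called alike between hearts on that ground, and with Mir126a left out of the totals Mir145a passed as lower at a log2 ratio of -0.05. The median log2 ratio of the 4 genes was 0.04, beside 0.02 over the 435 tested. The median absolute log2 ratio of the 4 genes was 0.10, beside 0.21 over the 435 tested. The tested genes include genes with far fewer counts than any of the 4, and low counts alone widen absolute ratios. This contrast is therefore not matched for depth, and it does not show that the 4 genes are steadier than others.

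When a spread between animals was allowed for, none of the 4 genes passed. With edgeR's exact test and a spread between animals set to 0.1 (as a coefficient of variation), 1 of 435 genes passed (0.230%), and at 0.2 the number was 0 (29 and 4 at an unadjusted p under 0.05). The unadjusted p values in the edgeR exact test at 0.1 were 0.611 for Mir143, 0.956 for Mir145a, 0.214 for Mir221 and 0.704 for Mir222, and the adjusted p was 1 for each.

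**Figure D4:**
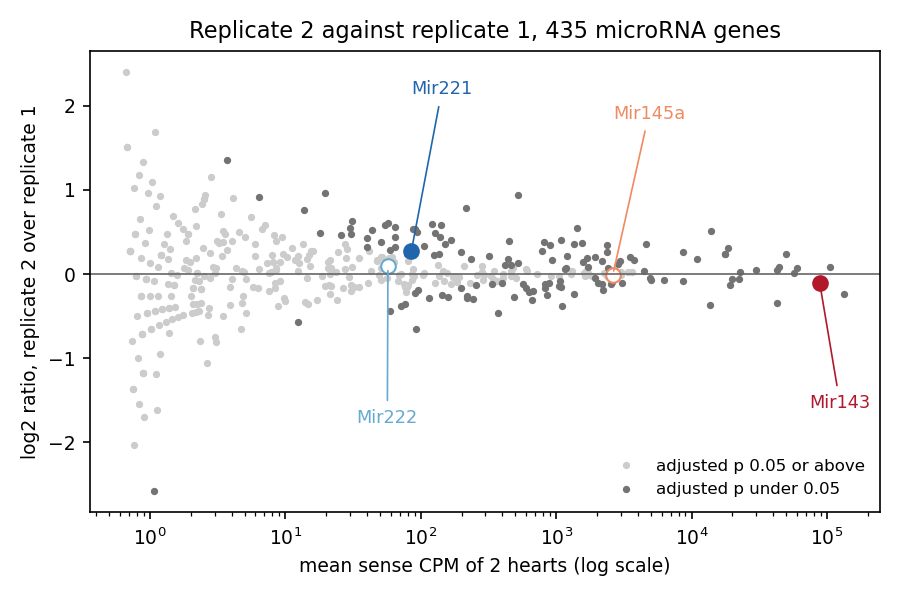
Log2 ratio of replicate 2 over replicate 1 against the mean level (CPM, log axis) of 435 tested genes, with dark points for an adjusted p under 0.05 in the exact binomial test. Of the 4 genes, Mir143 (-0.10) and Mir221 (0.28) are filled because they passed, and Mir145a (-0.01) and Mir222 (0.09) are open.

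Markers of other cell types also differed between the hearts in the exact binomial test, and their part in these differences was not tested. That test counts sampling noise alone and passed 31.0% of the 435 genes tested. No listed marker passed edgeR's exact test once a spread of 0.1 was allowed for. The 2 counted endothelial markers of 3 listed, Mir126a and Mir139, summed to 125176 CPM in replicate 2 and 146855 CPM in replicate 1, with Mir126a lower and Mir139 higher in replicate 2 in the binomial test. The 3 cardiac muscle markers, Mir208a, Mir208b and Mir499, summed to 124984 CPM in replicate 2 and 122248 CPM in replicate 1, in tissue labelled heart; Mir208b was higher in replicate 2, and Mir208a and Mir499 were lower. The 4 fibroblast markers, 2 of them with repeated sequence, summed to 19770 CPM in replicate 2 and 21496 CPM in replicate 1; Mir21a was lower in replicate 2, Mir199a-2 was higher, and the other 2 did not pass. The 4 counted leukocyte markers of 5 listed summed to 595 CPM in replicate 2 and 554 CPM in replicate 1. Mir155 was higher in replicate 2, and Mir142b was at 0 on its own strand in both. This sum leaves out the opposite-strand counts of Mir142b, 3958 in replicate 2 and 4043 in replicate 1. These exceeded the sense counts of each other leukocyte marker, so the direction of the sum holds for the sense strand only. The 3 counted erythroid markers of 4 listed summed to 1379 CPM in replicate 2 and 1114 CPM in replicate 1, with Mir451a higher in replicate 2 and Mir144 lower. The 2 skeletal muscle markers summed to 110.0 CPM in replicate 2 and 76.7 CPM in replicate 1, with Mir206 higher in replicate 2. The smooth muscle markers were Mir143 and Mir145a themselves, which summed to 87684 CPM in replicate 2 and 94054 CPM in replicate 1. Mir126b, Mir142a and Mir486b were not matched to a counted gene and are not analysed here.

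Other microRNAs reported in smooth muscle cells, as listed here, ranged widely in level, but by mean level every one below Mir204 has repeated sequence. Of 9 genes linked to differentiation or lower proliferation, 8 were counted and all 8 were detected; Mir1a-2 was not analysed here. Mir322, which lowers smooth muscle cell proliferation in rat, led them at 57017 CPM in replicate 2 and 56350 CPM in replicate 1, the nearest of the list to Mir143. Mir100, known to restrain mTOR, had 2075 CPM in replicate 2 and 2260 CPM in replicate 1, next to the level of Mir145a. Mir195a had 963 CPM in replicate 2 and 1248 CPM in replicate 1, and Mir10a 848 CPM in replicate 2 and 915 CPM in replicate 1. Mir204 had 77.6 CPM in replicate 2 and 84.6 CPM in replicate 1, at the level of Mir221. Mir1a-1, Mir133a-1 and Mir133a-2, muscle microRNAs that also act in cardiac muscle, had 1.97 to 10.04 CPM. Repeated sequence makes the counts of all 3 uncertain and possibly too low, because reads that matched several places were assigned to no gene.

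Of 8 genes linked to proliferation or the synthetic state, 7 were counted and all 7 were detected; Mir24-1 was not analysed here. Mir130a, which represses the growth-arrest factor Gax in rat smooth muscle, had 19441 CPM in replicate 2 and 20318 CPM in replicate 1. Mir21a, a microRNA of fibroblasts and injured vessels, had 18387 CPM in replicate 2 and 20161 CPM in replicate 1. Both lay far above Mir221 and Mir222. The counts of Mir143 were 4.63 times those of Mir21a in replicate 2, and 4.53 times in replicate 1. Mir31, which promotes smooth muscle cell growth in rat, had 88.6 CPM in replicate 2 and 89.9 CPM in replicate 1, close to Mir221. Mir24-2, Mir26a-1, Mir26a-2 and Mir146, the gene of miR-146a, had 8.79 to 592 CPM, and all 4 have repeated sequence.

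Between the hearts, 1 of the 8 differentiation genes was higher in replicate 2, Mir322 at a log2 ratio of 0.02. In the same list 3 genes were lower, Mir195a at -0.37, Mir100 at -0.12 and Mir10a at -0.11, and 4 did not pass. Of the 7 proliferation genes 0 were higher and 3 were lower, Mir21a at -0.13, Mir24-2 at -0.12 and Mir130a at -0.06, and 4 did not pass the exact binomial test. Over all 435 genes tested, 19.1% were higher and 12.0% lower in that test, and no gene of either list passed edgeR's exact test once a spread of 0.1 was allowed for. The median log2 ratio was -0.12 for the differentiation list and -0.02 for the proliferation list, beside 0.02 over all genes tested.

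**Figure D5:**
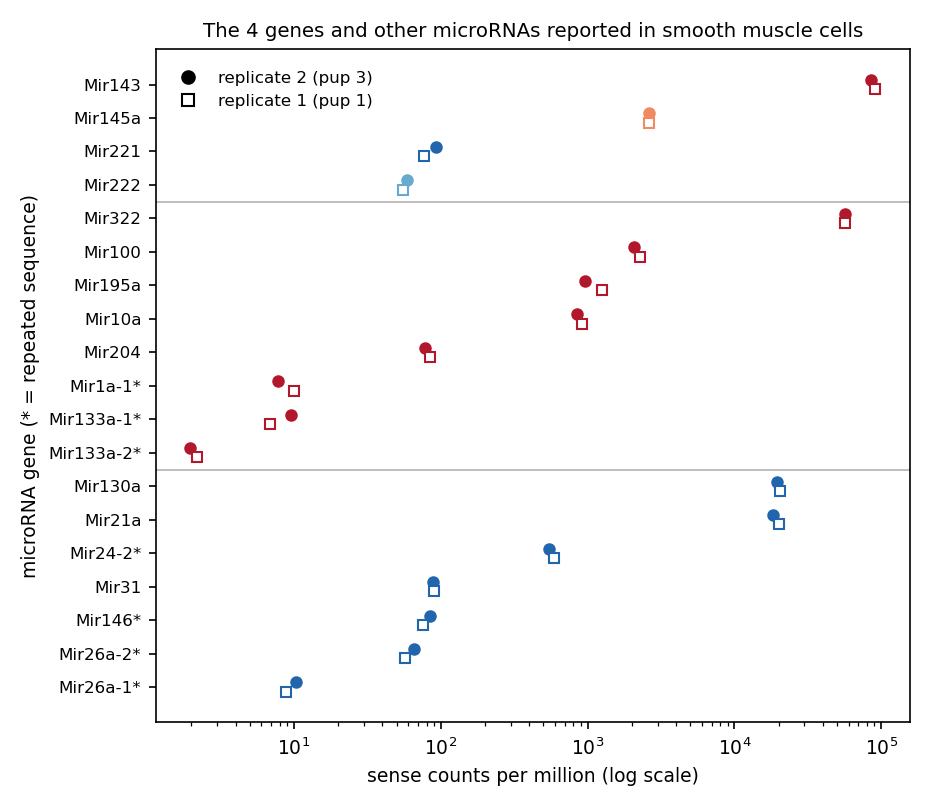
Sense-strand level (CPM, log axis) in replicate 2 (filled circles) and replicate 1 (open squares) of the 4 genes (top), of 8 microRNA genes linked to smooth muscle differentiation (middle) and of 7 linked to proliferation (bottom), with an asterisk for repeated sequence. Mir322 in the middle block and Mir130a and Mir21a in the bottom block lie above Mir145a, while Mir204 and Mir31 lie at the level of Mir221.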

How the data were processed

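The authors deposited raw read counts per gene, with no normalization, on build mm10 with GENCODE release M4, per the text files that accompany the tables; the sources used here do not give the aligner, the counter or the trimming. In every gene row the first of 3 columns equals the sum of the others; from the values it was read as both strands, the second column (92.8% and 92.9% of gene counts in replicates 2 and 1) as the gene's own strand, and the last as the opposite strand. The sense counts, scaled to CPM on their gene total, were used. Rows without a gene entered neither totals nor tests: multiply matching reads were 34.6% and 35.9% of all reads, unmapped reads 15.5% and 12.6%, and reads in no gene 2.28% and 1.93%, in replicates 2 and 1.

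Names and positions came from GENCODE M21 (1894 of 1973 identifiers matched without their version, the others with 0 sense counts). Mir143 and Mir145a have later versions in M21 than in the tables, so their counted bounds may differ from those printed. Repeated sequence means 20 nt shared, on either strand, with a non-overlapping annotated microRNA precursor. Log2 ratios between hearts used 0.5 added counts; edgeR's quasi-likelihood test has no residual degrees of freedom here.

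The members, lists and tests were chosen with earlier results of these data known. Named genes were the 4 members, the 2 genes nearest each in level, genes within 10 kb or with the same seed, the smooth muscle phenotype and cell type lists, and pairs and totals that include members; Mir126a and Mir208b as genes above Mir143, Mir145b, and the 2 pairs beside Mir143 over Mir145a were named after their values were seen. The alternatives were both strands, each library alone, thinning to the smaller total, other scalings and totals, other count minimums, 0.5 added counts, leaving out Mir126a, and a preset spread. Tests and figures used Python 3.11.15 with SciPy 1.17.1, NumPy 2.4.6, matplotlib 3.10.9 and pandas 2.3.3; DESeq2 1.42.0 gave size factors, and edgeR 4.0.16 ran in R 4.3.3.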

Additional observations from a re-analysis of the deposited data

Results flagged for a closer look

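3 genes of the cell type lists had opposite-strand counts, which the comparisons did not use, above the 3 counts that a count of 0 allows in both libraries. Mir142b had 3958 opposite-strand counts in replicate 2 and 4043 in replicate 1, beside 0 on its own strand. Mir486 had 37 in replicate 2 and 26 in replicate 1. Mir126a had 21 in replicate 2 and 21 in replicate 1. Of the 4 smooth muscle phenotype genes, Mir143 had 1 opposite-strand count in replicate 2 and 0 in replicate 1, Mir145a had 0 in replicate 2 and 3 in replicate 1, and Mir221 and Mir222 had 0 in both, so none was above that limit.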

How the results depend on the processing

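The 3 log2 ratios within a heart moved by less than 1 SD with both strands and with thinning, and the 2 pair ratios also with 0.5 added counts. These checks could hardly move them. In each library the 4 genes had at most 3 opposite-strand counts and at least 353 on their own strand, and thinning keeps ratios on average. In single libraries, where with 2 hearts a move of under 1 SD is given by construction, the 3 ratios ranged from 5.03 to 5.12 for Mir143 over Mir145a, 0.48 to 0.66 for Mir221 over Mir222 and 9.17 to 9.47 for the sums. Levels moved with the total they are scaled to. With all reads as the total, the mean level was, in CPM, 39828 for Mir143, 1180.3 for Mir145a, 38.4 for Mir221 and 25.8 for Mir222. With gene counts and multiply matching reads as the total it was 49523, 1468, 47.8 and 32.1 in the same order. With Mir126a out of the total it was 101870, 3020, 98.2 and 65.9 in the same order. With both strands it was 81914 for Mir143, 2429 for Mir145a and 53.1 for Mir222. TMM factors, DESeq2 size factors and thinning moved no level by 1 SD. That too is nearly given by construction. The factors shift the 2 hearts in opposite directions, and thinning keeps CPM on average. The number of genes that passed between hearts was 129 to 146 under the scalings, count minimums, strands and thinning tried, beside 135, and with the edgeR exact test it was 1 at a preset spread of 0.1 and 0 at 0.2 (29 and 4 at an unadjusted p under 0.05), since that test allows for variation between animals. The calls for Mir143 and Mir221 were lost in those preset-spread tests and in no other alternative run, and their direction held in all. Mir145a passed with Mir126a left out of the totals, which lowered the log2 ratios of all 4 genes alike, for Mir145a from -0.011 to -0.048. Why Mir126a itself differed between the hearts was not tested. No paired analysis was possible because there is 1 group. With 1 library per heart, animal and library cannot be told apart, and Mir221 and Mir222, with the fewest counts, have the widest counting intervals of the 4 relative to their level.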
